A study of Drosophila melanogaster with 16 samples.

Results

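A set of 33 of the 16637 transcripts on the arrays, called the even falls below, had a lower level in old than in young hearts of Drosophila melanogaster together with similar levels among the young hearts. The members were chosen by these measured values: a mean log2 level at 40 days lower than at 10 days by 0.8 or more, a highest 40-day sample below the lowest 10-day sample, and a standard deviation (SD) among the 10-day samples under 0.45. A list of 8 transcripts of ATP synthase and electron transport genes was left out by name. Of these, ATPsynCF6 (difference -1.09), ATPsynG (-1.01) and ATPsynE (-1.0) met the limits, so that 36 transcripts met them in all. The differences with age and the spread at 10 days are therefore descriptions of how the set was chosen, and no test of them is given.

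The samples were hand-dissected hearts (cardiac tubes) of adult males aged 10 or 40 days, all from a w1118, Canton S isogenic line kept in batches of 30 flies at 25 degrees and 60% humidity. Both ages carried the same genotype and received no treatment. Each age had 4 samples, lettered A to D and described in the study as biological replicates, of 10 pooled tubes each, and each sample was labelled with Cy3 and with Cy5, which gave 16 channels on 8 two-colour arrays. Levels are log2 normalized intensities, averaged over the probes of a transcript and both dyes. They can be compared between samples for 1 transcript but not between transcripts, because probes differ in brightness. In pooled dissected tissue, fewer cells of a type and less RNA per cell cannot be told apart.

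In 8 of the 16 columns of normalized values, the values followed the scanner channel of a different sample, of equal age and dye (correlation of at least 0.992, against at most 0.941 for the next channel). The age was the same in all 16 columns. At 10 days the samples B and C were exchanged in both dyes, which leaves the SD among young samples as it is. At 40 days the Cy3 columns were displaced while the Cy5 columns were not, so that each 40-day value below averages channels that the scanner files assign to different samples. When each column was placed with the channel it followed, all 33 members still met the limits, among 43 transcripts in all, and the smallest distance between the ages was 0.03. Sample letters below are those of the labels unless stated. As labelled, old sample A was highest in 22 members and D in 1, against 13 and 12 with the columns placed by channel.

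The heart of the adult fly is a contractile tube of cardiomyocytes that lies against fat body and nephrocytes and is bathed in haemolymph, in which haemocytes circulate. The fat body, the counterpart of liver and adipose tissue, secretes hormones, storage proteins and protease inhibitors into that fluid. Small heat shock proteins bind unfolded proteins, and cytochrome P450 enzymes oxidise hormones and foreign compounds.

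Gene names were available for 31 members, which stand for 29 genes, because regucalcin and CtsK2 (CG4847) each had 2 transcripts. The transcripts FBtr0076406 and FBtr0087199 had no name. Only genes in the study's own lists could be named, and all 482 named transcripts with a lower mean at 40 days come from its list of repressed genes. A count of named genes that were lower, or the fall of a sum over such genes, therefore restates that list. Only 1 of 12 listed heart genes (KCNQ) and none of the listed neuron and gut genes could be placed on the arrays by name, so the labelled tissue could not be checked against its defining markers. Per sample, 24.9% to 31.0% of gene probes exceeded the 95th percentile of random control probes, the level meant below by above the control probes.

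The difference between the means ran from -2.44 to -0.80 over the members, with a median of -0.96, beside a median of 0.01 over all transcripts. The mean at 10 days ran from 6.85 to 13.39, with a median of 8.05. In limma with Benjamini-Hochberg adjustment at 0.01, 0.0361% of the 16637 transcripts were called lower at 40 days, and the 6 calls were all members; at 0.05 the share was 0.102%, 17 transcripts, of which 10 were members. Per the labels both ages of a letter shared 2 arrays, and with the letter as a replicate block the count of members called at 0.01 was 0 with the columns as labelled and 6 with the columns placed by scanner channel. Without the block it called 11 members with the columns placed by scanner channel, and 3 members without young sample A or without young sample C. Every 40-day sample lay below every 10-day sample in 2.24% of all transcripts. Because the same contrast chose the members, nothing is read from these counts.

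**Figure D1:**
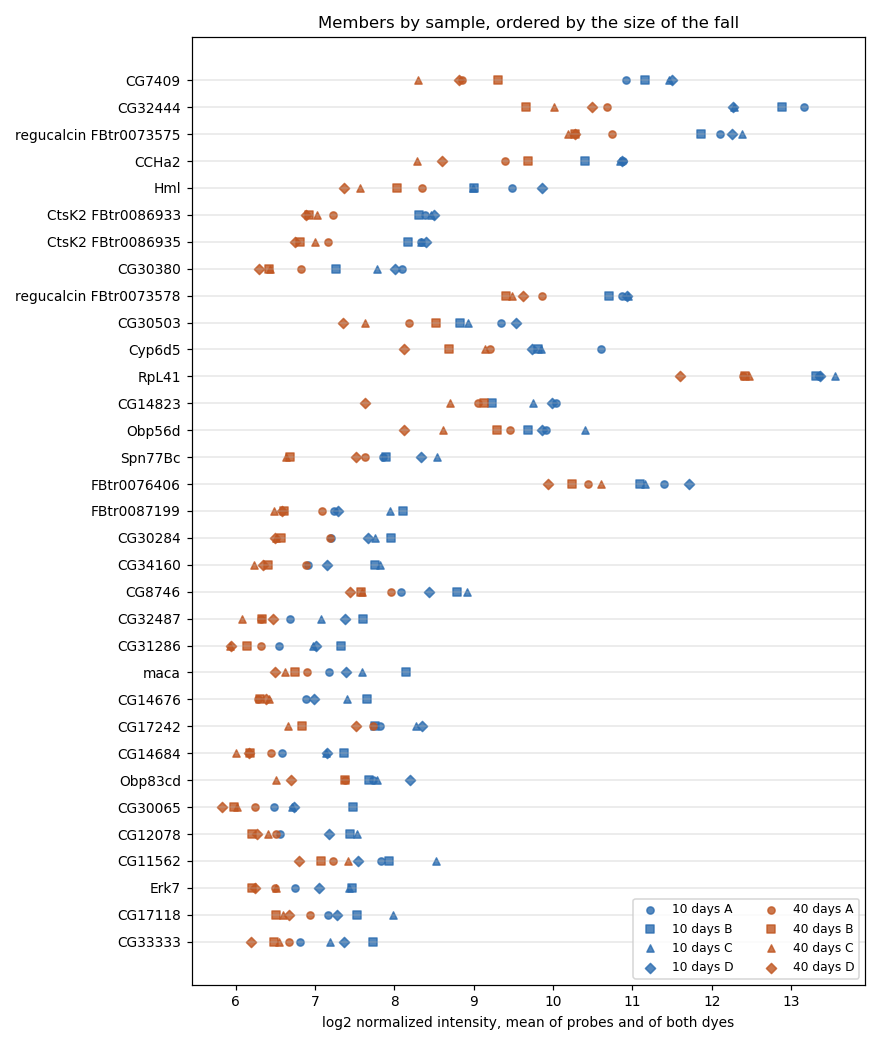
Each row is a member and each point the log2 normalized intensity of 1 sample, with 10-day samples in blue, 40-day samples in orange and the letter given by the marker. The ages do not overlap in any row, as the choice required, and the distance between them ranges from 1.62 in CG7409 to 0.02 in CG30284.

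The largest fall was that of CG7409, a gene of the small heat shock protein (alpha-crystallin) family. Its levels were 10.92, 11.15, 11.46 and 11.51 in the 10-day samples A to D and 8.86, 9.30, 8.29 and 8.82 in the 40-day samples. The lowest young sample, A, stood 1.62 above the highest old one, B. The difference of means was -2.44, or 5.44-fold lower, with an SD of 0.276 at 10 days and 0.412 at 40 days (n = 4 each), and it lay between -2.74 and -2.30 at the 8 probes.

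CG32444, which encodes an aldose 1-epimerase, an enzyme that interconverts the forms of sugars such as glucose, fell by the same amount from a brighter level. The 10-day samples had 13.16, 12.88, 12.28 and 12.27, and the 40-day samples 10.68, 9.65, 10.02 and 10.49. As labelled, samples A and B were the high ones at 10 days and A and D at 40 days, and the groups stayed 1.59 apart. With the columns placed by scanner channel the old samples A to D were 9.92, 9.99, 10.07 and 10.86, with only D high, and the groups were 1.41 apart. The difference was -2.44 (5.41-fold lower, SD 0.448 and 0.463), so that this member reached the limit on the young spread while having one of the 2 largest falls. On the list of sugar metabolism, 13 of 28 genes had a name, of which 9 had a lower and 4 a higher mean at 40 days. CG32444 was the 1 that limma called lower at 0.01, beside 0.0361% of all transcripts. The same contrast chose it, so nothing is read from this call.

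Regucalcin, a calcium-binding protein, was measured by 2 transcripts. FBtr0073575 had 12.11, 11.86, 12.38 and 12.25 at 10 days and 10.74, 10.28, 10.19 and 10.28 at 40 days, where sample A was above the other 3. FBtr0073578 had 10.87, 10.71, 10.94 and 10.94 at 10 days and 9.86, 9.40, 9.48 and 9.62 at 40 days. As labelled, both transcripts had sample B lowest at 10 days and sample A highest at 40 days. With the columns placed by scanner channel, sample D was highest at 40 days in both (10.63 and 9.77). The differences were -1.78 (3.43-fold, SD 0.22 and 0.251) and -1.27 (2.41-fold, SD 0.108 and 0.20). The probes of the first transcript ran from -2.03 to -1.16, while those of the second ran from -1.96 to 0.36, with 1 probe above 0.

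CCHa2, a peptide hormone produced by the fat body and gut, had 10.89, 10.40, 10.85 and 10.87 at 10 days. At 40 days it had 9.39, 9.69, 8.29 and 8.61. Young sample B stood below the other 3, which lay close together, and as labelled the old samples A and B were above C and D. With the columns placed by scanner channel the old samples A to D were 9.45, 9.05, 8.40 and 9.08. The difference was -1.76 (3.38-fold lower), with an SD of 0.232 among young and 0.655 among old samples, and the latter was 0.433 once the columns were placed by scanner channel. On the list of fat body and haemolymph proteins 5 of 12 genes had a name, of which regucalcin and CCHa2 were members, Lsp2 (a storage protein) and Tsf1 (transferrin) had differences of -1.83 and -1.67, and apolpp (the lipid carrier of the haemolymph) had 1.30. The members made up 59.6% of the list's summed intensity at 10 days, a share that depends on how bright the probes of each transcript are. Without them the sum of Lsp2, Tsf1 and apolpp ran from 2468 to 6061 at 10 days and from 1319 to 2129 at 40 days, and its part in the members' values was not tested.

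Hml encodes hemolectin, a clotting protein and a marker of haemocytes, the blood cells of the fly. Its levels were 9.49, 9.0, 8.99 and 9.86 at 10 days and 8.35, 8.04, 7.56 and 7.36 at 40 days. As labelled, samples A and D were high at 10 days, A and B at 40 days, and the ages were 0.64 apart. With the columns placed by scanner channel the old samples A to D were 8.07, 7.89, 7.48 and 7.87. The difference was -1.51 (2.84-fold lower, SD 0.421 and 0.449). Of the 13 listed haemocyte genes 5 had a name, and beside Hml the differences were -0.28 in Pxn, -0.53 in NimB4, -0.69 in Sr-CI and -1.44 in PPO2. The summed intensity of these 4, without Hml, lay between 651 and 968 in the young samples and between 432 and 493 in the old ones. These 4 could be named only because the study's list of repressed genes holds them, so the fall of their sum restates that list. None of the 5 was called lower by limma at 0.01, beside 0.0361% of all transcripts, so nothing is read from that count. The part of haemocyte number in Hml was not tested.

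The lowest spread among young samples was that of CtsK2, a cysteine protease of the cathepsin type. The transcript FBtr0086933 had 8.38, 8.31, 8.46 and 8.50 at 10 days and 7.23, 6.92, 7.02 and 6.89 at 40 days. The transcript FBtr0086935 had 8.33, 8.17, 8.34 and 8.40 at 10 days and 7.16, 6.81, 7.0 and 6.75 at 40 days. In both the order of the samples was nearly alike, with B lowest among young and, as labelled, A highest among old samples. With the columns placed by scanner channel, D was highest among old samples in both (7.13 and 6.98). The differences were -1.40 and -1.38 (SD at 10 days 0.0841 and 0.0976). The transcripts belong to 1 gene, so they do not count as separate evidence. At 40 days the first was above the control probes in 2 of 4 samples and the second in 1 of 4.

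RpL41, a protein of the large ribosomal subunit, was the brightest member and had the third lowest spread at 10 days. Its levels were 13.36, 13.31, 13.55 and 13.37 at 10 days and 12.40, 12.41, 12.47 and 11.59 at 40 days. The 3 old samples A to C lay close together and D stood apart below them. The difference was -1.17 (2.26-fold lower, SD 0.104 and 0.419), and it differed little between probes, from -1.24 to -1.10. With the columns placed by scanner channel the old samples were 12.25, 12.60, 12.01 and 12.01, and no sample stood apart.

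Several other members encode secreted or haemolymph proteins. CG14823, a lysozyme-type gene, had 10.03, 9.23, 9.74 and 9.99 at 10 days and 9.06, 9.13, 8.70 and 7.62 at 40 days, so that young sample B and old sample B were only 0.10 apart. Its difference was -1.12 (2.17-fold lower), and its SD at 40 days, 0.695, was the highest of the set. The odorant-binding proteins Obp56d and Obp83cd had differences of -1.09 and -0.86, and on their list of 6 genes 4 had a name, with Obp99a at -1.73 and Obp19b at -0.54. Spn77Bc, a serpin, and CG17242, of the trypsin-like serine protease homologues, had differences of -1.04 and -0.86 and similar sample patterns at 40 days, with A and D high and B and C low.

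Among enzymes, Cyp6d5, a cytochrome P450, had 10.60, 9.80, 9.85 and 9.73 at 10 days and 9.21, 8.69, 9.14 and 8.12 at 40 days. Young sample A stood above the other 3, and the groups were 0.53 apart. The difference was -1.21 (2.31-fold lower, SD 0.404 and 0.505), with a difference of -0.62 in Cy3 and -1.80 in Cy5. On the list of P450 and detoxification genes 10 of 13 had a name, and Cyp6d5 was the only member. CG30503, predicted to be a phospholipase A2, had 9.35, 8.83, 8.93 and 9.53 at 10 days and 8.19, 8.53, 7.63 and 7.35 at 40 days, a difference of -1.24 (2.35-fold lower, SD 0.336 and 0.534). CG30380 had 8.09, 7.27, 7.78 and 8.01 at 10 days and 6.82, 6.41, 6.44 and 6.29 at 40 days, a difference of -1.30. It was not above the control probes in any 40-day sample, which bounds the fold at 1.66 or more.

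**Figure D2:**
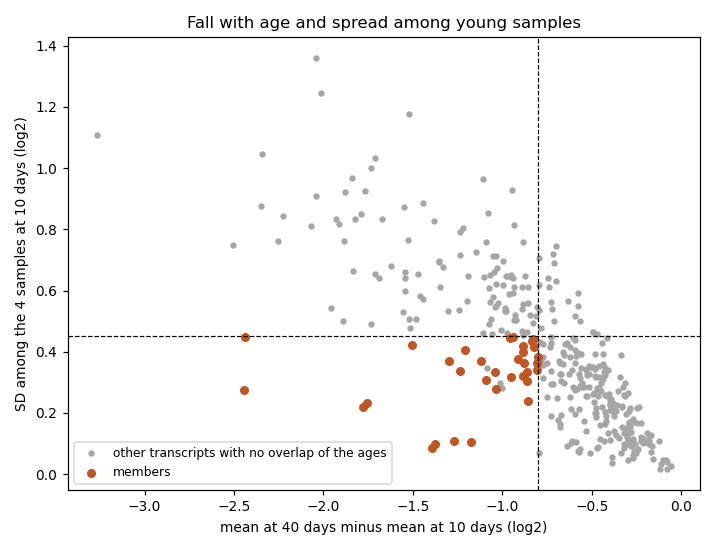
Transcripts whose ages did not overlap and that were lower at 40 days, with the difference of means (log2) on the x axis and the SD of the 4 young samples (log2) on the y axis. The members, in orange, fill the corner below -0.8 and under 0.45, where the dashed lines mark the limits of the choice. The grey points in that corner are the 3 transcripts left out by name.

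The values next to the limits were close to one another. On the difference, CG33333 (-0.803) and CG17118 (-0.805) were just inside and CG15657 (-0.7998) and the unnamed FBtr0074701 (-0.796) just outside. On the SD of the young samples, CG34160 (0.449) and CG32444 (0.448) were inside and Dhc98D (0.456) and CG15461 (0.458) outside. On the distance between ages, CG30284 (0.018) and CG17242 (0.026) were inside and whip (-0.013) and CG32483 (-0.016) outside.

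The dimmer members differed from the brighter ones in which young samples were lowest and highest. Their pattern was not particular to the set, as the shares in other transcripts given below show. In 16 of the 33 members young sample A was lowest, and of these 10 were highest in B, 5 in C and 1 in D. In the other 17 members B was lowest in 13, and none was highest in B. The first 16 had a median level at 10 days of 7.34 and the other 17 one of 9.75. Of the 16 members with a 10-day mean below 8, 13 were lowest in sample A.

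Examples of the 16 are Erk7, an atypical mitogen-activated protein kinase, with 6.75, 7.46, 7.43 and 7.05 at 10 days and 6.5, 6.21, 6.51 and 6.24 at 40 days, and maca, with 7.18, 8.15, 7.59 and 7.39 and then 6.90, 6.74, 6.63 and 6.49. In both, sample A was lowest and B highest at 10 days. The other dim members of this group were CG32487, CG14676, CG14684, CG30065, CG12078, CG17118, CG33333, CG31286, CG34160, CG30284 and the unnamed FBtr0087199, with differences between -0.96 and -0.80. CG8746, at a mean of 8.56, and Spn77Bc and CG7409 also had A lowest. CG11562 was highest in C at 10 days, with 7.83, 7.94, 8.53 and 7.54, and had 7.23, 7.08, 7.42 and 6.80 at 40 days. The unnamed FBtr0076406 was bright, with 11.40, 11.10, 11.16 and 11.71 at 10 days and 10.44, 10.24, 10.61 and 9.94 at 40 days, a difference of -1.03.

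**Figure D3:**
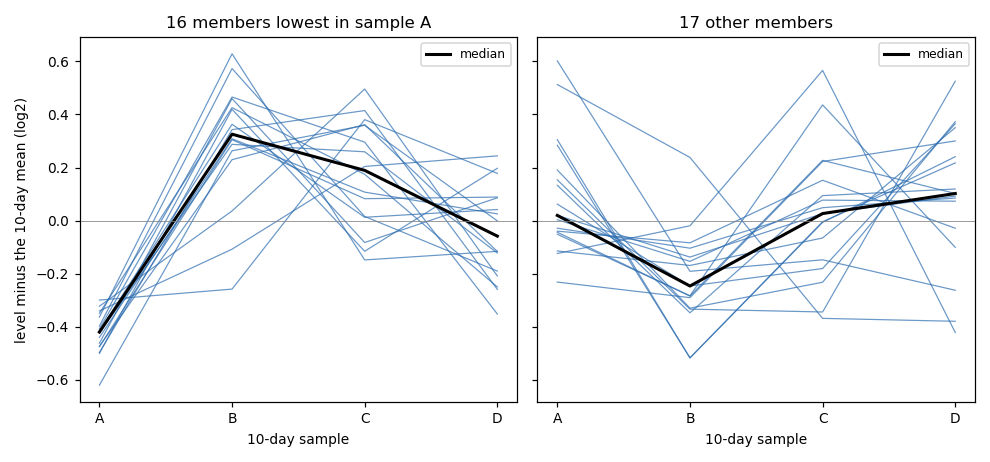
Level of each member in the 4 young samples minus its mean over them (log2), for the 16 members lowest in sample A (left) and the other 17 (right), with the median in black. The left group has A lowest and mostly B highest, and in the right group B is lowest in 13 of 17.

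Among all transcripts A was lowest in 28.0% and B highest in 46.3%, and among the 109 transcripts that met the other limits but had an SD of 0.45 or more at 10 days A was lowest in 67.9% and B highest in 66.1%. In the even falls the shares were 48.5% and 30.3%. These transcripts with an uneven young level had a median difference of -1.15 and a median SD among young samples of 0.646, against -0.96 and 0.339 in the members, and the median level at 10 days was similar, 8.10 against 8.05.

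Genes expressed in the testis, the 26 genes of a list, of which 14 had a name and none was a member, had a summed intensity of 5265 in young sample A, 15332 in B, 13152 in C and 7555 in D. In the old samples it was 5195, 3369, 2087 and 1773. The 14 could be named only through the study's list of repressed genes, so the fall of their sum restates that list. Such a sum is weighted to bright transcripts, here Mst84Dc with a mean log2 level of 12.40 at 10 days. As labelled, young sample A thus had the lowest and B the highest sum. Over all members A was lowest in 48.5% and B highest in 30.3%, beside 28.0% and 46.3% of all transcripts. Of the 16 members lowest in A 10 were highest in B, a share that was not computed over all transcripts lowest in A. The part of these genes in the members' values was not tested. Of 10 listed accessory gland genes 2 had a name, with a summed intensity of 748 to 2779 at 10 days and 228 to 727 at 40 days. These 2 also have their names from the list of repressed genes. In the synonyms given by RefSeq, clone names of testis cDNA collections were found for 4 of the 29 member genes (CG34160, CG30065, CG30284 and CG31286), that is 13.8%, against 2.41% of 13962 protein-coding genes and 16.9% of the 89 genes of the uneven falls. Names given to clones depend on which libraries were sequenced, and the search was made after the values were seen.

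Of the 33 members, 13 were above the control probes in all 4 old samples, 8 in some and 12 in none. The limit comes from single control probes, while a member's level is a mean over 8 probes, which varies less. A member not above the limit is therefore not shown to be absent, and the share over all transcripts was not computed. All 4 young samples were above them in 25 members. For 10 of the 12 not above control in old samples a lower bound could be set, from at least 1.0-fold (CG14684) to at least 1.66-fold (CG30380). None could be set for CG31286 and CG30065. Their means at 10 days, 6.97 and 6.85, did not exceed the control level used for the old samples.

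The fall differed between the dyes. All 33 members were lower in both dyes, 31 of them more so in Cy5. The median difference was -0.61 in Cy3 and -1.35 in Cy5, and over all transcripts the medians were 0.28 and -0.27. The quartiles over all transcripts were 0.15 and 0.40 in Cy3 and -0.43 and -0.14 in Cy5. A lower difference in Cy5 than in Cy3 was therefore not particular to the members. Relative to all transcripts the members' medians were -0.89 and -1.08. CG32444 (-2.50 and -2.38) and RpL41 (-1.39 and -0.96) fell more in Cy3.

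**Figure D4:**
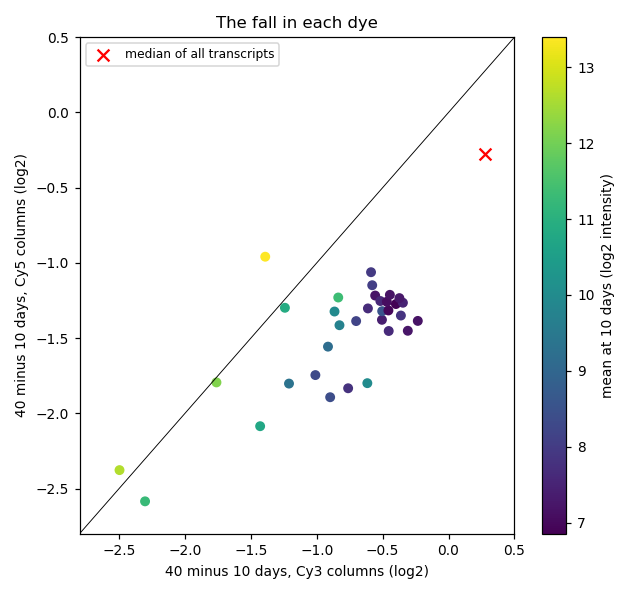
Difference between the ages in the Cy3 columns (x axis) and the Cy5 columns (y axis), log2, with each member coloured by its 10-day mean and the cross marking the median of all transcripts (0.28 and -0.27). In 31 of 33 members the point lies below the line of equality, with the larger fall in Cy5. The cross lies on the same side of the line.

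Within a member the probes agreed in direction in most cases. All 8 probes were lower at 40 days in 30 of 33 members, beside 10.4% of all transcripts, and the exceptions FBtr0086935, FBtr0073578 and Spn77Bc had 7 of 8. On the 8 arrays of scanner intensities, corrected and normalized separately, all 33 members were lower at 40 days on every array, beside 3.70% of all transcripts. These arrays hold the same RNA as the normalized table, so these counts repeat the measurement that chose the members. The brighter a member's probe, the larger its fall in most members, with a Spearman correlation over the 8 probes below 0 in 32 of 33 and a median of -0.69. In 23 of 33 members the smallest fall was at one of the 2 dimmest probes. The median correlation was -0.79 in the uneven falls, so this trend was not particular to the members. Neither count was made over all transcripts.

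**Figure D5:**
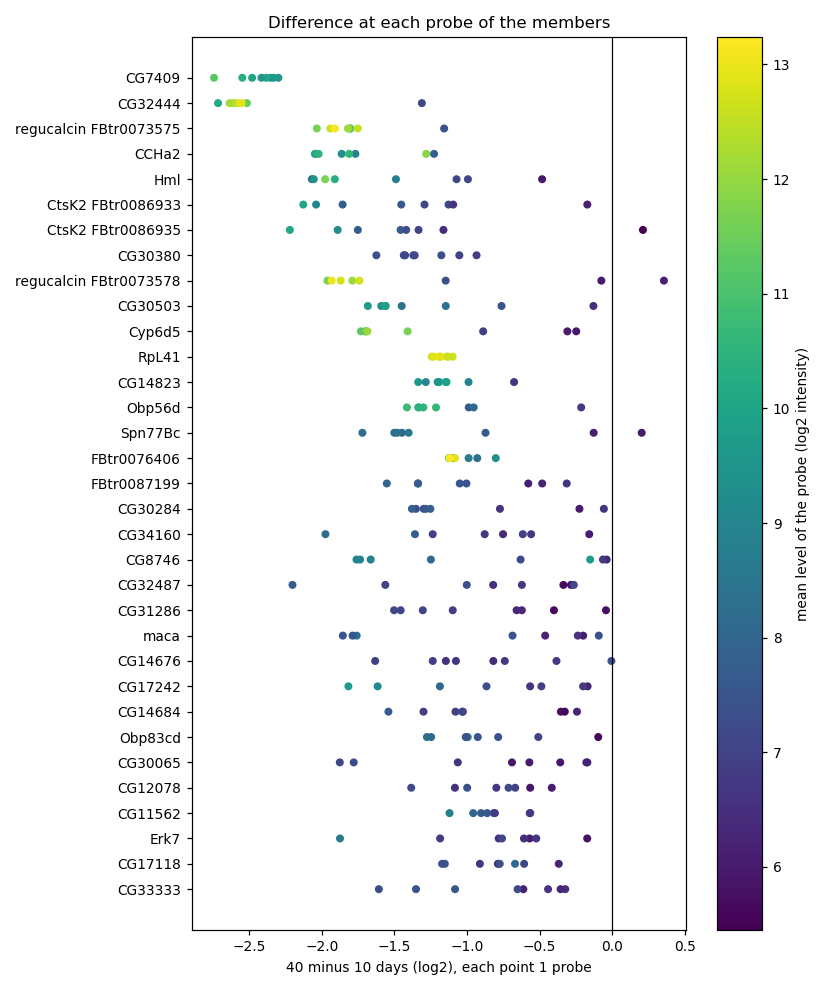
Difference between the ages (log2) at each of the 8 probes of every member, coloured by the mean level of the probe. The probes of RpL41 and CG7409 lie close together, and in CtsK2 the dim probes have the differences nearest 0.

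The choice used the old samples only through their mean and their highest value. As labelled, the median SD among the old samples (the old spread) was 0.261 over the members, against 0.168 over all transcripts. This old spread was above the young spread in 18 of 33. Once the columns were placed by scanner channel the median was 0.186, against 0.145 over all transcripts and 0.181 in the uneven falls, and the old spread exceeded the young one in 10 of 33. It was 0.45 or more in 9 members as labelled and in 0 after that step. Members not lowest in young sample A had a median old spread of 0.449 as labelled and 0.238 after, and those lowest in A 0.183 and 0.159. The spread among old samples thus changed with which Cy3 and Cy5 columns were averaged. The median level at 10 days was 6.44 over all transcripts and 8.05 in the members, and the spreads were not compared at equal level.

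No 2 member genes were neighbours in the RefSeq annotation of the Release 6 assembly, and at least 14 protein-coding genes lay between any 2 on the same chromosome. The second transcript of CG31286 on the arrays, FBtr0081683, had a difference of -0.56 and is not a member. Of 21 gene lists, 5 held a member, with 7 member genes in all, and the lists of the tricarboxylic acid cycle, antioxidants, muscle, testis and accessory gland held none. The absence of ATP synthase genes follows from the transcripts left out by name.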

How the data were processed

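RNA of 8 samples (4 at each age, 10 dissected tubes each) was extracted with Trizol, amplified with messageAmp, labelled indirectly and hybridised to 8 arrays. The arrays were then scanned, and the software named is NimbleScan 2.5.26. The authors deposited scanner intensity per channel, not normalized, and a table of lowess-normalized intensity on a linear scale (column medians of 70.4 to 99.9), in which 16 columns carry a sample. The build behind the arrays' transcript numbers is not given in the sources used here, so no coordinates are printed.

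Log2 of the normalized intensity was averaged over probes, usually 8 a transcript (132999 gene probes), and then over both dyes. The 4100 random control probes served as background, and the number of arrays limits the precision. The ages were compared with limma 3.58.1 (lmFit and eBayes) in R 4.3.3, 4 samples against 4 over 16637 transcripts, with Benjamini-Hochberg adjustment. The procedure was tested on simulated data. The other alternatives were scanner intensities with and without normexp correction, quantile normalization, the median of probes, a filter on dim probes (11279 transcripts kept), each dye alone, a trended robust prior, the letter as a block, leaving out each sample and other limits of the choice. Placing columns by scanner channel was added after the data had been seen. Tables and figures used Python 3.11.15, pandas 2.3.3 and matplotlib 3.10.9.

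The members, the 21 gene lists and the tests were chosen with earlier results of these data and the study's tables known. Names come from the study's lists of called genes, matched to repressed transcripts by value (452 of 472 repressed entries on 1 transcript, 0 after shuffling the folds), so genes the study did not call have no name here. Current symbols and gene order come from a RefSeq table of the Release 6 assembly. Genes were named by rule where they had one of the 10 largest falls or 5 lowest young spreads, stood on a list, or lay nearest to a limit. The other members are named so that each is accounted for. A fold written as at least N compares the young mean with, in each old sample, the higher of the 95th percentile of control probes and the member's own level.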

Additional observations from a re-analysis of the deposited data

Results flagged for a closer look

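There were 66 groups of 4 samples (33 members at 2 ages). In 5 of them 1 sample lay far from the other 3 relative to the range of the group. By chance the limit used marks about 1 in 20 independent groups. The groups here share the same samples and were chosen by the young spread and by ages that did not overlap. That rate therefore does not apply to them. The share over all transcripts was not computed, so nothing is read from the count. The gap divided by the range was 0.845 for the high 40-day sample A of regucalcin FBtr0073575, 0.919 for the low 10-day sample B of CCHa2, 0.867 for the high 10-day sample A of Cyp6d5, 0.913 for the low 40-day sample D of RpL41 and 0.898 for the high 40-day sample A of CG30284. With the columns placed by scanner channel the 40-day ratios were 0.775 in regucalcin FBtr0073575, 0.597 in RpL41 and 0.0231 in CG30284, none of them past the limit, while CG32444 passed it with 0.837.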

How the results depend on the processing

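No alternative turned the direction of any member: of 528 single-member values 477 stayed within the spread of the samples and 51 moved beyond it, 18 in each dye alone, 11 with the filter on dim probes and 4 with the median of probes. Many of these values could not have turned. Leaving out 1 sample cannot reverse a member, because the choice required that the ages not overlap. Placing columns by scanner channel moved them only within an age, so each difference stayed as it was. The median difference was -0.61 in Cy3, -1.35 in Cy5 and -1.30 with the filter. Leaving out 1 sample gave medians of -1.09 to -0.90 and a median old spread of 0.163 to 0.314.

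The choice itself was less stable. It found 11 transcripts in Cy3 (9 of them members), 279 in Cy5 (27 members), 52 with the filter (20 members), 17 and 64 with an SD limit of 0.35 and 0.55, and 16 and 77 with a difference limit of -1 and -0.6. With quantile normalization it found 41, of which 18 were members. Leaving out 1 sample gave 27 to 156 transcripts, with the highest count without young sample A, and between 18 and 33 of the members among them.

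limma called 6 transcripts lower and 50 higher, and 6 members. It called 3 lower and 3 members with the trended robust prior, 13 lower in Cy5, 117 higher in Cy3, and 24 higher from scanner intensities with normexp. At 0.05 it called 17 lower, 121 higher and 10 members. With columns placed by scanner channel, chosen after seeing the data, it called 16 lower, 118 higher and 11 members. Leaving out 1 sample gave 3 to 8 lower, 20 to 56 higher and 3 to 6 members, with 3 members without young sample A and 3 without young sample C. Both ages of a letter shared 2 arrays, while the deviations of samples of one letter correlated by -0.188, -0.0311, 0.468 and 0.247 for A to D as labelled and by 0.0159, 0.385, -0.0701 and 0.414 by scanner channel. With the replicate block limma called 0 lower, 4 higher and 0 members at 0.01, with 1785 transcripts at an unadjusted p under 0.05. With the replicate block and the columns placed by scanner channel, also chosen after seeing the data, it called 9 lower, 34 higher and 6 members.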
